A study of Mus musculus with 20 samples.

Results

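The prostate of the inbred mouse strain 129X1/SvJ was set against that of 4 other inbred strains, C57BL/6J, FVB/NJ, BALB/c and DBA/2, on 2-colour cDNA microarrays. The comparison rested on the 4 arrays of 129X1/SvJ, of 20 arrays in all, with 16 arrays of the other strains, 4 per strain. Each array held amplified RNA of 1 pool of 3 males aged 8 to 9 weeks, 12 mice per strain, in which equal amounts of RNA of the dorsal, lateral, ventral and anterior lobes had been combined. All mice were untreated and unmodified, so the groups differed in strain and in what goes with the strain: 129X1/SvJ, C57BL/6J and FVB/NJ mice came from 1 vendor and BALB/c and DBA/2 mice from another. For the last 2 strains, strain and vendor cannot be told apart.

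Every pool was hybridised against a common reference of RNA from all strains, 129X1/SvJ included, and the value of an array element is log2(sample/reference). Of 11552 elements, 11159 had enough values to be tested. The difference given for a gene is the mean of the 4 129X1/SvJ pools minus the mean of the 4 other strain means, on the log2 scale, so the shared reference cancels and a difference of 1 is a doubling. A difference was called at an adjusted p under 0.05 in limma. An element was called apart from every other strain where 129X1/SvJ differed in the same direction from each of the 4 strains on its own, with the weakest of those 4 tests adjusted over all 11159 elements. Ratios of different genes rest on different probes, so only differences between strains are compared here, not levels between genes.

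The mouse prostate is a set of paired lobes of secretory tubules. In these a luminal epithelium releases proteins, polyamines and lipids into the seminal fluid under the control of androgens. A thin layer of basal cells and a sheath of smooth muscle and fibroblasts lie around that epithelium. Inbred strains are each close to genetically uniform, so a difference in RNA between strains that mice of 1 strain share may come from inherited variants in or near the gene, from changes elsewhere in the genome or from the make-up of the tissue. Strains of the 129 family are the source of many embryonic stem cell lines and are often used or crossed with C57BL/6 in models of prostate cancer. In whole prostate, fewer cells of a type and less RNA per cell cannot be told apart.

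Promoter sequences of 4 genes at the head of the comparison are shown. These genes had the largest differences in each direction or follow each other among the measured genes of a chromosome. Cmbl and Mmp7 were the named genes with the largest excess in 129X1/SvJ among those apart from every other strain. Cyp2b10 had the largest deficit among them, and Cyp2b9 is the next measured gene after Cyp2b10. Genes that were not measured may lie between genes that follow each other in this order. The windows run from 250 bases before to 50 bases after the start of the gene on the plus strand, as RefSeq gives them for GRCm38.p6, a reference assembly built from C57BL/6J, so alleles of 129X1/SvJ are not shown. Capitals mark a match on either strand to any of 4 motifs that were searched. The AP-1 site was searched as TGAGTCA. The core of the TATA box was searched as TATAAA. The CCAAT box reads ATTGG where it lies on the other strand. The E-box was searched as CACGTG.
Cmbl, chr15:31568583-31568882: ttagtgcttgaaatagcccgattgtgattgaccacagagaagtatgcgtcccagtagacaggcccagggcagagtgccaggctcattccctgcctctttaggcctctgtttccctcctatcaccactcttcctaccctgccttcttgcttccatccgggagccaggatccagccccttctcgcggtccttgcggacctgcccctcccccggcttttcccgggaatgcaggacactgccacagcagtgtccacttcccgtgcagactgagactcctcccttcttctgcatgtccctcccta
Mmp7, chr9:7691840-7692139, the first of its 2 windows: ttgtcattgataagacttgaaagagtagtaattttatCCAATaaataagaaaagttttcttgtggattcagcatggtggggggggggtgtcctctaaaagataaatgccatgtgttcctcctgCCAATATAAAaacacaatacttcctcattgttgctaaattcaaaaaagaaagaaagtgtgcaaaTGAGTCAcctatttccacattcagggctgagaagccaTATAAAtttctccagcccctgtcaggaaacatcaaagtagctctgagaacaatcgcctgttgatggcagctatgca
Cyp2b10, chr7:25897408-25897707: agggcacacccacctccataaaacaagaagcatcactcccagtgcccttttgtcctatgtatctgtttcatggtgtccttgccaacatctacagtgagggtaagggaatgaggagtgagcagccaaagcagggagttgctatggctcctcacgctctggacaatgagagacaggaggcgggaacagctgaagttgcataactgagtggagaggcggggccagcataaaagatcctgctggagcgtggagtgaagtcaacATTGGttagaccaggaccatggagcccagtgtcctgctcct
Cyp2b9, chr7:26173159-26173458: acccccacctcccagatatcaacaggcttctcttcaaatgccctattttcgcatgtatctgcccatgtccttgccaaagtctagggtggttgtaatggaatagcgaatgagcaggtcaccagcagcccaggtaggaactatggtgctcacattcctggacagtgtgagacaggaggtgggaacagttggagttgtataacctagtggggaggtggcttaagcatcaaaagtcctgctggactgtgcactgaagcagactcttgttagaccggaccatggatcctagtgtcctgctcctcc

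The Mmp7 window held 1 AP-1 site, and the TATA core and the CCAAT box at 2 places each, with a CCAAT box that overlaps a TATA core. The AP-1 letters occurred in 5.20% of 32851 windows of all genes and in 1 of the 21 windows found among the 24 named genes apart from every other strain. The TATA core occurred in 13.6% of all windows and in 3 of the 21, those of Mmp7, Sin3b and Snhg3. The CCAAT box, present in 37.4% of all windows, was found in 12 of the 21, the Cyp2b10 window among them. The E-box, present in 7.15% of all windows, was found in those of Lypd5 and Epcam. None of the 4 motifs was found in the windows of Cmbl and Cyp2b9. The windows of Cyp2b10 and Cyp2b9 were identical at 223 of 289 aligned bases (77.2%). These 2 genes are close paralogs, and a cDNA probe of 1 may also bind the transcript of the other, so their ratios may share signal.

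The arrays of 129X1/SvJ spread more widely than the others, which limits every value below. The median SD of an element over the 4 pools was 0.30 in 129X1/SvJ and 0.15 to 0.18 in the other strains. The median absolute deviation of an array ran from 0.29 to 0.44 in 129X1/SvJ and from 0.16 to 0.29 elsewhere. Medians of the arrays lay between -0.01 and 0.02, and each array gave 10998 to 11251 values. Estimated weights are low for noisy arrays. With 1 weight per strain, that of 129X1/SvJ was 0.35 against 1.11 to 1.71 for the other 4. In a separate fit with a weight per array, the lowest was 0.156, for pool 4 of 129X1/SvJ. Pools of 129X1/SvJ labelled with the same dye correlated at 0.22 and 0.38 across elements, and those of opposite dye at -0.15 to -0.02, against 0.41 to 0.70 and -0.08 to 0.35 within the other strains. Number of arrays, not depth, sets the precision of such ratios, and signal over background was not used here.

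**Figure D1:**
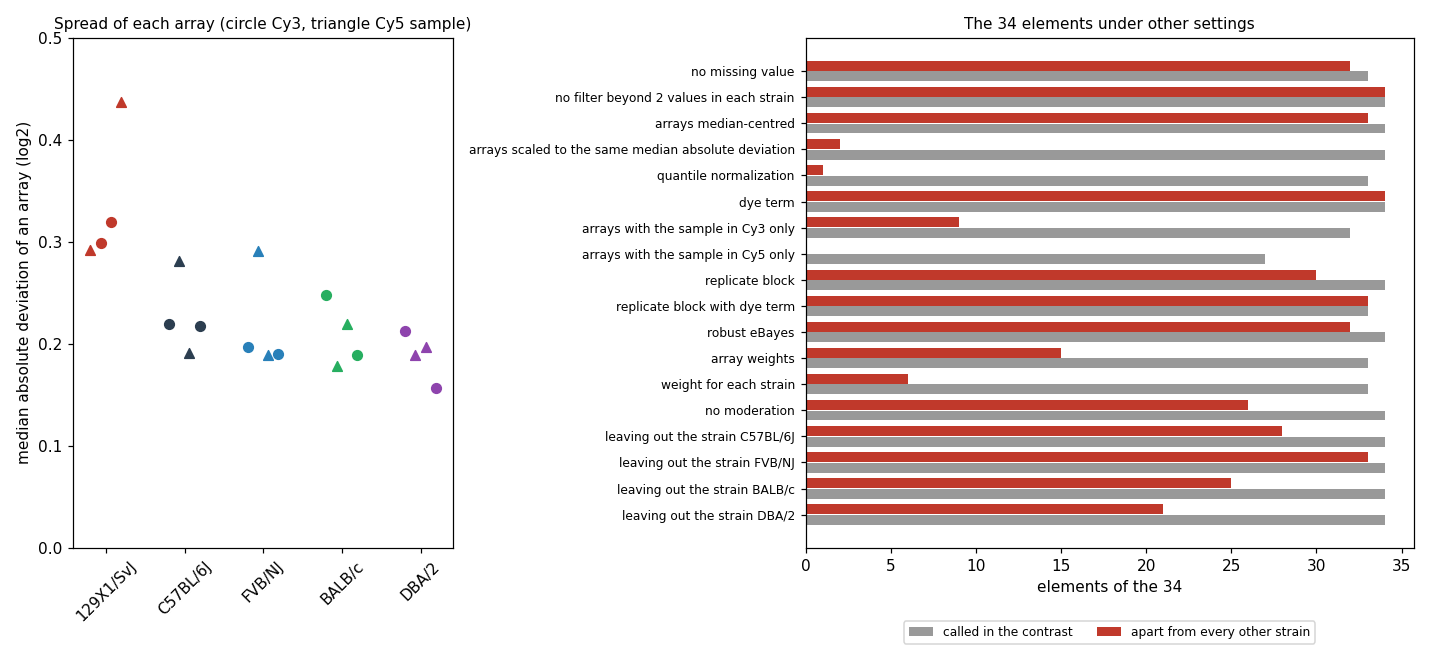
Left, the median absolute deviation of the log2 ratios of each array (vertical axis, log2 units), by strain, with circles for a sample in Cy3 and triangles for a sample in Cy5; the 4 arrays of 129X1/SvJ sit between 0.29 and 0.44. Right, how many of the 34 elements apart from every other strain (horizontal axis) were still called in the contrast (grey) and still apart from every strain (red) under each alternative, where a weight for each strain leaves 33 and 6.

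In all, 636 of 11159 elements (5.7%) differed between 129X1/SvJ and the mean of the other strains, 330 higher (2.96%) and 306 lower (2.74%). The median size of a called difference was 0.53, which is 1.44-fold. Most called elements put 129X1/SvJ at an end of the order of strains, with its mean above all 4 others for 296 and below all 4 for 277, while 63 lay inside the range of the others. Such an end position was frequent over all elements tested, called or not, at 5931 (53.1%). For 126 called elements (1.13% of those tested) the 4 pools of 129X1/SvJ did not overlap any of the 16 others, 72 above and 54 below.

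Apart from every other strain were 34 elements (0.305%), 19 above and 15 below, and the pools of all 34 were free of overlap with the 16 others. Their differences had a median size of 1.02, or 2.03-fold, and ran from 0.48 to 2.29. No single strain stood nearest to 129X1/SvJ among them: C57BL/6J, FVB/NJ and BALB/c were each nearest for 9 and DBA/2 for 7. Over the 573 called elements at an end of the order, C57BL/6J was nearest for 107 (18.7%), DBA/2 for 145, FVB/NJ for 157 and BALB/c for 164. Of the 34 elements, 24 represent a named gene, 1 is a further element of Atxn2 (difference 0.90) and 9 have no single gene symbol here. With a weight for each strain, which lets the noisier 129X1/SvJ arrays count for less, 33 of the 34 were still called in the contrast but only 6 remained apart from every strain, and after scaling every array to the same spread the counts were 34 and 2. Under the strain weights Cmbl, Olfm1 and 3110040N11Rik were the named genes that remained, with an adjusted p of 0.00558 each.

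**Figure D2:**
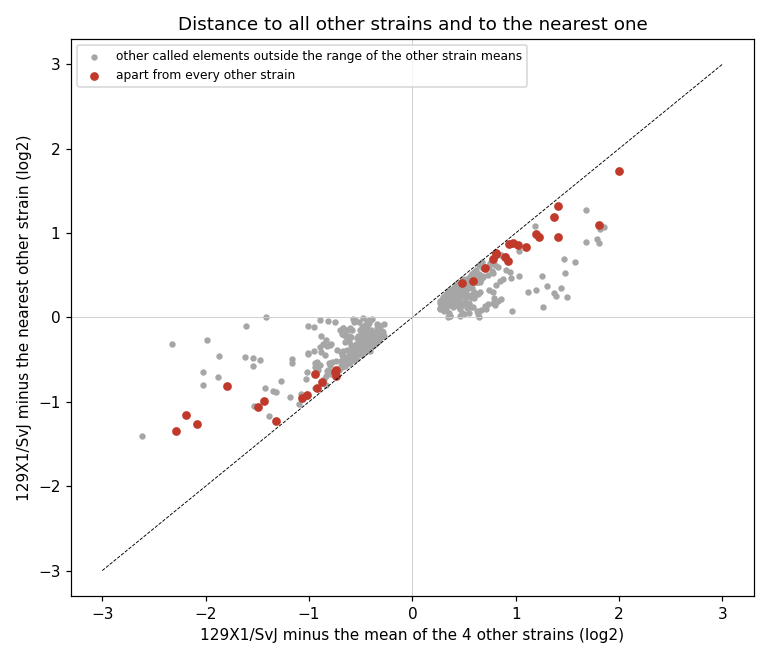
Each point is a called element whose 129X1/SvJ mean lay outside the range of the 4 other strain means; the horizontal axis gives its distance from the mean of the 4 strains and the vertical axis its distance from the nearest strain, both in log2 units, and the dashed line marks equal distances. The 34 elements apart from every other strain are red, and gaps of the 24 named genes among them ran from 0.40 to 1.73 in size.

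Among the 24 named genes apart from every strain, the largest differences were those of Cmbl on the higher side and Cyp2b10 on the lower, both in the list of xenobiotic metabolism. Cmbl encodes carboxymethylenebutenolidase, a cytosolic hydrolase that cleaves ester prodrugs. Its 4 129X1/SvJ pools were at 1.13, 1.23, 1.15 and 1.76, and the 16 other pools at -1.31 to 0.11 with a median of -0.75. All 4 pools were high and pool 4 was the highest. The difference of 2.00 ± 0.14 (SE) is 4.01-fold, and the nearest strain, DBA/2, was 1.73 lower (3.32-fold; adjusted p of the test against every strain 9.93e-05 in limma).

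Cyp2b10, a cytochrome P450 best known as a target of the xenobiotic receptor CAR in liver, was at -2.16, -2.43, -2.20 and -1.39 in 129X1/SvJ. The other 16 pools ran from -1.24 to 1.10 with a median of 0.33, so the groups did not overlap. The difference was -2.19 ± 0.14, a 4.57-fold deficit, and BALB/c, with pools at -1.09, -0.72, -1.24 and -0.53, came nearest at a gap of -1.15 (adjusted p 0.00514). BALB/c pools were also the lowest of the other strains, and FVB/NJ pools, at 0.70 to 1.10, the highest. Cyp2b9, the next measured gene on chromosome 7, was lower as well (-2.61 ± 0.29), with 129X1/SvJ pools at -3.35, -3.01, -2.43 and -0.95. Its pool 4 lay inside the range of BALB/c, -1.31 to -0.67, and the gene was not apart from every strain (adjusted p 0.23). Without pool 4 the Cyp2b9 difference was -3.11.

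Of 25 measured genes of xenobiotic metabolism, 5 were called, where 6.25% of all 5820 named genes were. The other 2 were Abcc4, an efflux pump for drugs and cyclic nucleotides, at 0.65 ± 0.12, and Ces1e, a carboxylesterase, at -0.82 ± 0.10. Ces1e was not particular to 129X1/SvJ: its pools at -1.02 to -0.60 lay among those of FVB/NJ at -1.09 to -0.63, while the remaining 3 strains were at 0.08 or above. Abcc4 pools, at 0.28 to 1.01, lay above all 16 others, of which the highest was at 0.25. The gene was not apart from every strain (adjusted p 0.52 in limma). The median difference of the list was 0.06 against -0.00286 over all named genes. Without pool 4 of 129X1/SvJ 8 of the list were called, and with a weight for each strain 4.

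Metalloproteinases break down matrix and shed proteins from cell surfaces. Mmp7, matrilysin, is the family member made by glandular epithelium. Mmp7 was at 1.09, 1.32, 0.93 and 0.89 in 129X1/SvJ, and at -1.94 to 0.13 with a median of -0.70 in the other pools. The 129X1/SvJ pools were alike and all higher than any other. The difference was 1.80 ± 0.15 (3.49-fold), and the gap to C57BL/6J, the nearest strain, was 1.10 (2.14-fold, adjusted p 0.00974); DBA/2 was lowest, at -1.94 to -1.43. A further Mmp7 element gave 1.78 ± 0.18 and was called, but not apart from every strain (adjusted p 0.14).

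Of 22 measured metalloproteinases and inhibitors, 4 were higher and 1 lower, with a list median of 0.05, where 6.25% of all named genes were called. Mmp8, neutrophil collagenase, comes just before Mmp7 among the measured genes of chromosome 9. Mmp8 was higher by 0.78 ± 0.13, but its 129X1/SvJ pools at 0.33 to 1.13 overlapped those of C57BL/6J at 0.17 to 0.43. Mmp24, a membrane-type enzyme, was higher by 0.49 ± 0.08 with no overlap (0.35 to 0.49 against -0.28 to 0.11). It was not apart from every strain (adjusted p 0.10 in limma). Adam11, a member of the related ADAM family without protease activity, was higher by 1.49 ± 0.18, yet FVB/NJ pools at 0.58 to 1.28 spanned the same range as those of 129X1/SvJ at 0.29 to 1.05. Mmp3, stromelysin, was lower by -0.85 ± 0.22 on pools at 0.42, -0.81, -1.84 and -0.65, and the call was lost without pool 2 (-0.82, adjusted p 0.060) or without pool 3 (-0.47, adjusted p 0.11). A further Mmp3 element was called at -0.80 ± 0.12. With a weight for each strain 2 of the 5 calls in the list remained.

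Olfm1, a secreted olfactomedin glycoprotein of nervous tissue, was at 0.87, 0.96, 0.84 and 1.62, against -0.73 to -0.04 elsewhere with a median of -0.34. Its difference was 1.41 ± 0.13 (2.65-fold) and its gap to DBA/2 1.32 (adjusted p 0.00045). The 16 other pools were close together, so all 4 strains stood at like distances. Kera, which encodes the small leucine-rich proteoglycan keratocan, was at 1.15, 2.03, 0.89 and 0.62 against -0.64 to 0.17. Its difference was 1.37 ± 0.17, and the 129X1/SvJ pools differed more among themselves than those of any other strain. Rnase4, a secreted ribonuclease, was at 0.84, 1.20, 0.49 and 0.30 against -0.62 to 0.26, so pool 4 was only just outside the highest other pool. A further Rnase4 element was called at 0.95, but with overlap and not apart from every strain (adjusted p 0.12 in limma). Leaving out 1 pool in turn, Rnase4 stayed apart from every strain in 7 of 20 repeats. Gdf10, a ligand of the TGF-β family, was lower by -0.75 ± 0.09, with pools at -0.61, -0.78, -0.40 and -0.79 against -0.10 to 0.33.

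9530053A07Rik, a secretory prostate transcript with domains like those of the IgG Fc-binding protein of mucus, was at -1.54, -1.64, -1.61 and -2.11. The other pools ran from -1.18 to 1.02 with a median of 0.15 and fell into strain order, from FVB/NJ (-1.18 to -0.68) through BALB/c (-0.47 to -0.24) and DBA/2 (0.53 to 0.83) to C57BL/6J (0.70 to 1.02). The difference was -1.79 ± 0.10 (3.46-fold lower) and the gap to FVB/NJ -0.81 (adjusted p 0.00559). Further elements of the gene gave -1.32 and -1.27, both called, and -0.02, not called.

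Among proteins that act inside the cell, Dynlt1b, a light chain of cytoplasmic dynein, was at 0.61, 0.78, 1.10 and 1.52 in 129X1/SvJ and at -1.51 to 0.28 elsewhere. FVB/NJ was lowest at -1.51 to -0.80 and BALB/c nearest, 0.95 below. The difference of 1.41 ± 0.15 was that of 1 element; 2 further elements of the gene gave 0.36, called, and 0.24, not called. Dynlt1b has near-identical copies in the genome, so the transcript behind an element is uncertain. Ralgps2, an exchange factor for Ral GTPases, was at 0.94, 1.21, 1.00 and 0.15 against -0.85 to 0.01. Tor3a, the measured gene just before Ralgps2 on chromosome 1, was higher too (0.60). Elovl7, an elongase of long-chain fatty acids, was at 0.61, 0.74, 0.27 and 0.57 against -0.54 to 0.14. A further Elovl7 element gave 0.15 and was not called. The gene was the sole called one of 15 measured in cholesterol and fatty acid synthesis, where 6.25% of all named genes were called. Epcam, the epithelial cell adhesion molecule, was higher by 0.59 ± 0.07, with pools at 0.38, 0.56, 0.38 and 0.31 against -0.55 to 0.04, where C57BL/6J was lowest at -0.55 to -0.39.

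Atxn1, a polyglutamine protein that binds transcriptional repressors, was at 0.62, 1.00, 0.53 and 0.55 with a difference of 0.94 ± 0.13. Sin3b, a scaffold of histone deacetylase complexes, had the smallest difference of the 24 genes, 0.48 ± 0.07, with pools at 0.40, 0.31, 0.29 and 0.50 against -0.19 to 0.06. Ier3, an immediate early gene induced by stress and growth factors, was at 0.80, 0.63, 0.52 and 0.83 against -0.51 to 0.39. No other of 29 measured immediate early and stress genes was called, where 6.25% of all named genes were. Lysmd1 (1.10 ± 0.13) and Lypd5 (0.81 ± 0.12) were the remaining genes above every strain.

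On the lower side, Noct, nocturnin, whose RNA cycles with the day in several tissues, was at -0.88, -1.25, -1.27 and -2.12 against -0.68 to 0.72. Its difference was -1.50 ± 0.15 (2.82-fold lower), and none of the other 10 measured genes of the circadian clock and its output was called. Over all named genes 6.25% were called, so 10 genes are too few to read missing calls as a result. Snhg3, a host transcript of small nucleolar RNAs, had the 4 most even 129X1/SvJ pools of the lower genes, at -0.89, -0.78, -0.83 and -0.96 against -0.23 to 0.38; its difference was -1.02 ± 0.10 (adjusted p against every strain 0.00162). Pnrc2, which takes part in mRNA decapping and binds nuclear receptors, was at -0.30, -0.69, -0.63 and -0.90 against -0.07 to 0.42. Zcchc3, a nucleic acid-binding zinc finger protein, was at -0.48, -0.47, -0.50 and -1.05. Miga1, a protein of mitochondrial fusion, was lower by -0.94 ± 0.11, with a further element at 0.54 that was not called, so its direction rests on 1 element. Tulp2, a member of the tubby family known from testis, was at -1.82, -1.36, -1.27 and -1.10 against -0.53 to 0.87, a difference of -1.44 ± 0.12. The transcript 3110040N11Rik was at -1.52, -0.63, -0.80 and -0.69, while the 16 other pools lay in the narrow range of 0.00 to 0.32.

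Leaving out 1 pool in turn, Cmbl, Mmp7, Olfm1, Ralgps2, Cyp2b10, 9530053A07Rik, Tulp2, 3110040N11Rik, Snhg3, Gdf10 and Pnrc2 stayed apart from every strain in all 20 repeats. The least stable were Epcam and Zcchc3, apart in 2 of 20, Ier3 in 3 and Sin3b in 4. For 17 of the 24 genes the SD over the pools was larger in 129X1/SvJ than in any other strain, and for 11 of the 24 the pool farthest from the 129X1/SvJ mean was pool 4. Of the 82 called genes named here, 21 lost the call when some 1 pool of 129X1/SvJ was left out, and 0 of the 24 did. The 24 had passed the stricter test on these same pools, so that they kept the call is no independent evidence.

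**Figure D3:**
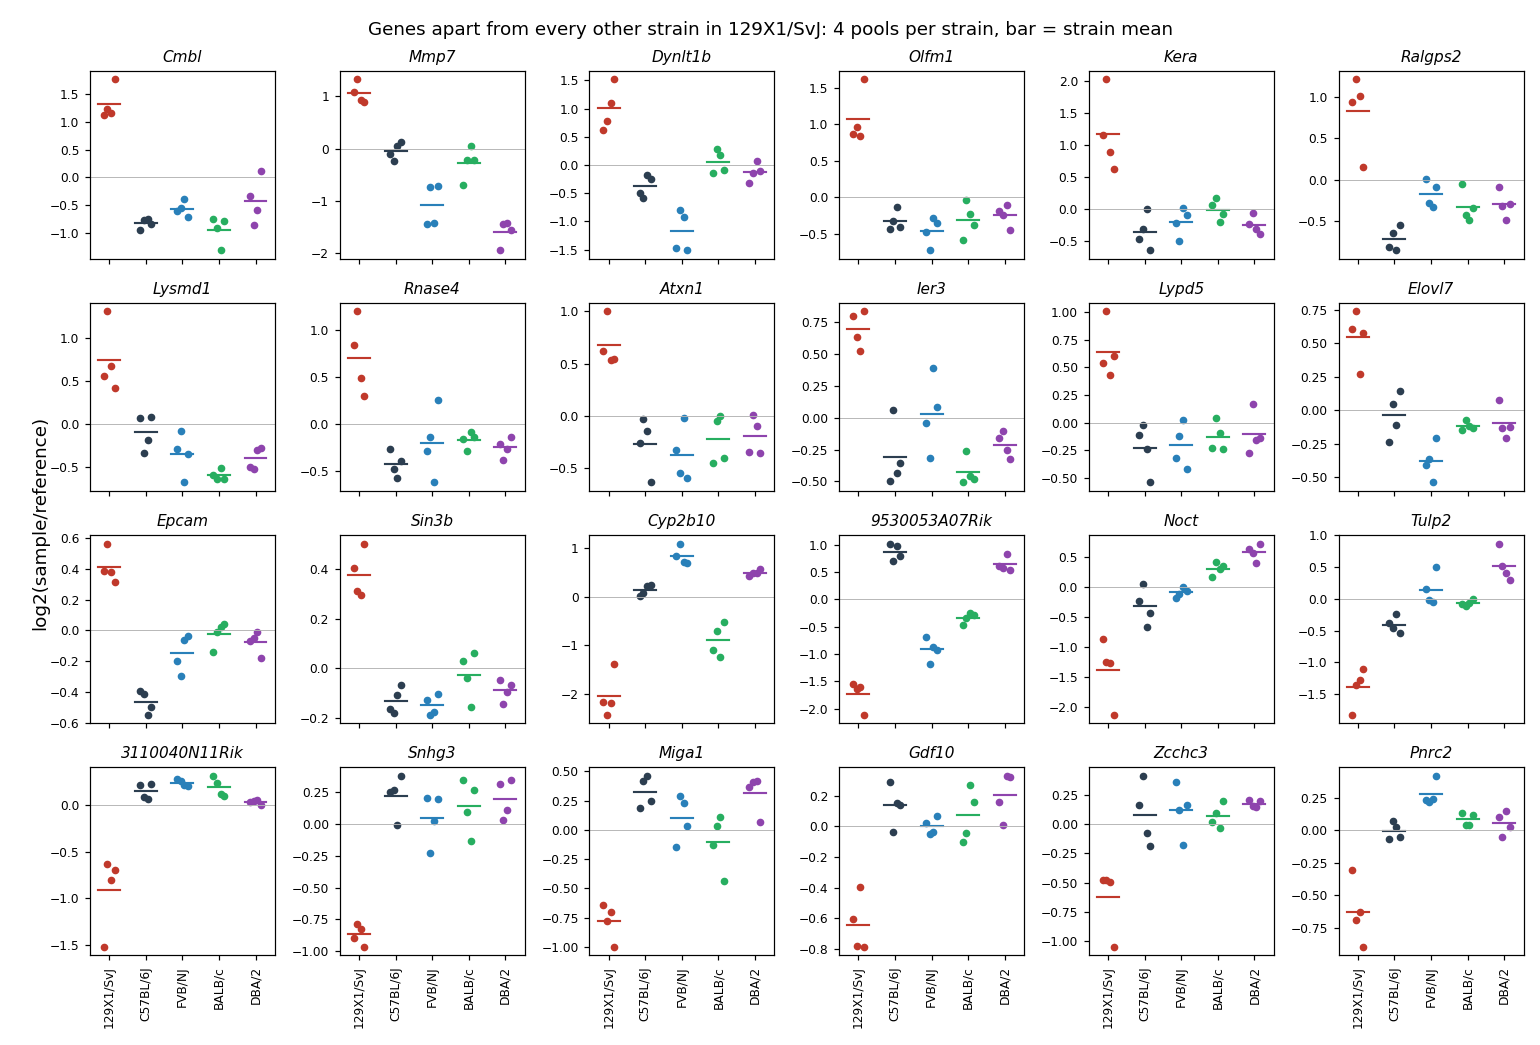
Each panel is 1 of the 24 named genes apart from every other strain; points are the 4 pools of a strain, bars the strain means, and the vertical axis is log2(sample/reference), on a scale of its own in each panel. The red points of 129X1/SvJ lie above all others for the first 14 genes and below all others for the last 10.

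Several of the largest differences were shared with another strain and so were not particular to 129X1/SvJ. Mgst1, a membrane-bound glutathione transferase that removes lipid peroxides, was higher by 2.06 ± 0.15. The 129X1/SvJ pools at 0.60 to 1.16 matched those of FVB/NJ at 0.86 to 1.36, and the other 3 strains were at -1.39 or below. The next measured gene after Mgst1 on chromosome 6, Pik3c2g, a class II phosphoinositide kinase, was higher by 1.46. Gsto1, an omega-class glutathione transferase, was higher by 1.49 ± 0.11, at 0.70 to 1.28 in 129X1/SvJ and 0.53 to 0.98 in C57BL/6J, a gap of 0.25. Slc7a11, the cystine transporter that feeds glutathione synthesis, was lower by -1.31 ± 0.18, at -2.21 to -0.77 in 129X1/SvJ and -1.62 to -1.24 in C57BL/6J. In glutathione metabolism and defence against oxidants, among 32 genes measured, 3 were higher and 2 lower, with a median of 0.08. Over all named genes 6.25% were called. Gstk1 (0.46) and Gstz1 (-0.27) completed the 5 of the list, and none of these was apart from every strain. Gstk1 was not called without pool 3 or 4 (0.43 and 0.30), nor Gstz1 without pool 1, 2 or 3 (-0.27, -0.25 and -0.28).

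Vnn1, the pantetheinase that splits pantetheine to pantothenate and cysteamine, was at -3.28, -3.27, -3.29 and -2.44 in 129X1/SvJ. C57BL/6J and DBA/2 pools lay close by, at -3.31 to -2.47 and -2.74 to -2.31, while FVB/NJ and BALB/c ran from -0.06 to 1.95. The difference of -2.33 ± 0.25 therefore set 3 low strains apart from 2 high ones, with a gap of -0.32 to C57BL/6J. Mis12, a kinetochore protein, was low in the same manner in 129X1/SvJ (-2.50 to -1.89), FVB/NJ (-2.21 to -1.75) and BALB/c (-2.45 to -1.68), and at 0.72 or above in C57BL/6J and DBA/2.

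Genes of the major histocompatibility complex followed the strains in other combinations. H2-Ea, the alpha chain of the class II E molecule, was at -3.61 to -2.89 in 129X1/SvJ, -4.05 to -3.11 in C57BL/6J and -3.12 to -2.12 in FVB/NJ, and at 0.60 to 1.50 in BALB/c and DBA/2. Some mouse haplotypes are known to lack a functional E alpha gene. H2-Eb1, the beta chain of the same molecule, was higher by 0.52 ± 0.13 in the comparison, but FVB/NJ alone was low, at -1.95 to -1.40, and the 129X1/SvJ pools at -0.14 to 0.47 lay among the other 3 strains, and the call was lost without pool 1 or 3 (0.43 and 0.49). H2-Q1, a class I gene, was higher by 0.70 ± 0.12, at 0.29 to 0.71 in 129X1/SvJ and 0.27 to 0.60 in C57BL/6J and FVB/NJ. Class I genes are near-identical, so this element may also read related transcripts. In all 3 of 14 measured genes of antigen presentation were called and 0 of 19 interferon-stimulated genes, where 6.25% of all named genes were.

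Of 28 measured proteins of the prostatic secretion, 4 were called higher and 7 lower, with a median of -0.23. Over all named genes 6.25% were called. Lists were chosen with earlier results of these data known, so a higher share in a list is no independent evidence. Spink8, a serine protease inhibitor of the Kazal type, was at -2.18, -1.91, -2.42 and -1.13, like FVB/NJ at -2.58 to -1.95, against -0.59 to 1.25 in the other 3 strains (difference -1.69 ± 0.16). Sbp, spermine-binding protein of the ventral lobe, was at -1.09, -1.26, -1.04 and -0.37, lower by -0.86 ± 0.16, and BALB/c pools at -0.99 to -0.44 were nearest. Egf, epidermal growth factor, was lower by -1.01 ± 0.20 on pools at -0.93, -0.38, -0.53 and -2.08, which overlapped FVB/NJ at -0.99 to -0.69. Without pool 4 the Egf difference was -0.64 and still called. 9530002B09Rik (-0.84 ± 0.16) had 5 further elements at -0.66 or below, of which 4 were called.

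On the higher side of the secretory list were Psca, 9530003J23Rik, Azgp1 and Acpp. Psca, prostate stem cell antigen, is a surface protein anchored by a lipid and also abundant in urothelium. Its representative element was at 1.10, 1.09, 1.34 and -0.20 in 129X1/SvJ and at -1.69 to 0.34 elsewhere, a difference of 1.47 ± 0.21, so pool 4 alone lay among the other strains. On the 3 further elements of Psca all 4 129X1/SvJ pools were above all others, with differences of 1.68, 1.82 and 1.85. These elements were not apart from every strain (adjusted p 0.098, 0.23 and 0.24 in limma). Nor was the representative element, on which FVB/NJ was the next strain. 9530003J23Rik, a lysozyme-like transcript, was higher by 1.26 ± 0.15 (0.18 to 1.25 against -1.55 to 0.48) and its further element by 1.48. Azgp1, zinc-alpha-2-glycoprotein, at 0.23 to 0.40, was above FVB/NJ, BALB/c and DBA/2 (-1.14 to -0.20) but below C57BL/6J (0.75 to 1.11).

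Some genes of the secretory list are made above all by the seminal vesicle, a gland next to the anterior lobe. Pate4 was called lower (-2.02 ± 0.58, adjusted p 0.046), with 129X1/SvJ pools at -3.66, -0.84, -4.05 and -3.95, and the call was lost without pool 1, 3 or 4 of 129X1/SvJ (adjusted p 0.093, 0.14 and 0.11). Svs2, seminal vesicle secretory protein 2, was at -5.97, -1.06, -7.31 and -7.21 in 129X1/SvJ and from -7.63 to 2.56 elsewhere and was not called (adjusted p 0.20). Of 13 measured seminal vesicle markers 0 were higher and 2 lower, where 6.25% of all named genes were called. Their mean per pool ran from -1.87 to 0.08 in 129X1/SvJ, -1.82 to 0.12 in C57BL/6J, -1.63 to -0.24 in FVB/NJ, -1.63 to -1.35 in DBA/2 and 0.12 to 0.53 in BALB/c. Every BALB/c pool was thus above every pool of 129X1/SvJ, and the part of seminal vesicle tissue in the secretory list was not tested.

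Of 22 measured androgen-regulated genes 4 were higher and 4 lower, with a median of -0.06, where 6.25% of all named genes were called. The list shared Egf, Sbp, Azgp1 and Elovl7 with those above. Odc1, which starts polyamine synthesis, was lower by -0.42 ± 0.10, but DBA/2 pools at -0.75 to -0.38 were as low as those of 129X1/SvJ at -0.68 to -0.09, and 3 further elements at -0.24 to -0.17 were not called. Without pool 2 the Odc1 call was lost too (-0.35, adjusted p 0.069). With a weight for each strain 5 of the 11 secretory calls, 2 of the 8 androgen calls and neither polyamine call remained.

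Of 55 measured ER chaperones and genes of the unfolded protein response, 5 were lower and 0 higher (6.25% of all named genes were called), with a median of -0.14. Hspa5, the ER chaperone BiP, was at -0.23, -0.74, -0.22 and -2.48, a difference of -1.01 ± 0.29, and the call was lost without pool 4 (-0.49, adjusted p 0.16) and without pool 2 (adjusted p 0.061). Mcfd2, a cargo receptor for secreted proteins, was lower by -0.59 ± 0.16, with pool 4 at -1.46, and without that pool the difference was -0.28 and not called (adjusted p 0.091). Kdelr3 (-0.59 ± 0.10), Syvn1 (-0.60 ± 0.15) and Erp44 (-0.36 ± 0.08) made up the 5, and Erp44 was as low in DBA/2 (-0.46 to -0.29). Syvn1 was not called without pool 2 (-0.48, adjusted p 0.076).

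Of 52 measured genes of the respiratory chain and ATP synthase, 4 were called higher and 0 lower, a share near the 6.25% called over all named genes, with a list median of 0.19. Uqcr10, a subunit of complex III, was at -0.14, 0.14, 0.42 and 1.51 in 129X1/SvJ, so 2 of its pools lay among the other strains, and its difference of 0.68 ± 0.18 was not called without pool 4 (0.34, adjusted p 0.077). Ndufa13 and Ndufb5, subunits of complex I, were higher by 0.40 and 0.38, and Atp5d, of ATP synthase, by 0.32. Each lost its call without some single pools, with differences of 0.33 to 0.36 for Ndufa13, 0.25 to 0.36 for Ndufb5 and 0.29 to 0.32 for Atp5d, as did Uqcr10 without pool 3 (0.70). Without pool 4 of 129X1/SvJ 0 respiratory genes and 3 ER genes were called, without pool 1 there were 7 and 10, and with a weight for each strain 0 and 0. Cytosolic ribosomal proteins gave 0 calls in 47, with a median of 0.06.

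In cell division and replication, among 58 genes measured, 2 were higher and 5 lower, and with a weight for each strain 1 call remained. Over all named genes 6.25% were called, the share to set beside each list of this paragraph. Pttg1, securin, was lower by -0.67 ± 0.12, with C57BL/6J far above the other 4 strains at 0.90 to 1.45. A further Pttg1 element gave -1.17 ± 0.11 with no overlap, but was not apart from every strain (adjusted p 0.28 in limma). Ccna2, cyclin A2, was lower by -0.48, with pool 3 at -0.86, and 3 further elements at -0.20, -0.55 and -0.36 were not called. Mcm5, of the replicative helicase, was higher by 0.48 but not called without pool 1 or 3 (0.45 and 0.38). Tubb5, a beta-tubulin, was lower by -0.91 ± 0.15 without overlap, on pools at -0.40, -0.71, -0.58 and -1.26. It was not apart from every strain (adjusted p 0.48 in limma), and its further element gave 0.31 and was not called. Dctn3 (0.50), a subunit of dynactin, and Kif1b (-0.35), a kinesin, were the other called genes of 32 measured dynein, kinesin and microtubule genes; Dctn3 lost its call without pool 2 (0.33), and Kif1b without pool 2, 3 or 4 (-0.35, -0.30 and -0.32). Ppp3cc, a catalytic subunit of calcineurin known from testis, was the sole called gene of 9 measured for calcineurin and NFAT; its pools were at -0.72, -0.35, -2.70 and -0.36, and the difference of -1.10 ± 0.26 became -0.55 without pool 3, still called. Of 64 measured genes of Wnt, BMP and growth factor signalling 1 was higher, Tgfbr1 (0.28), and 1 lower, Egf; Tgfbr1 was not called without any 1 of the 4 129X1/SvJ pools (0.25 to 0.30), and without pool 4 the list had 8 calls. The coenzyme A list had 2 measured genes, of which Vnn1 was called.

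**Figure D4:**
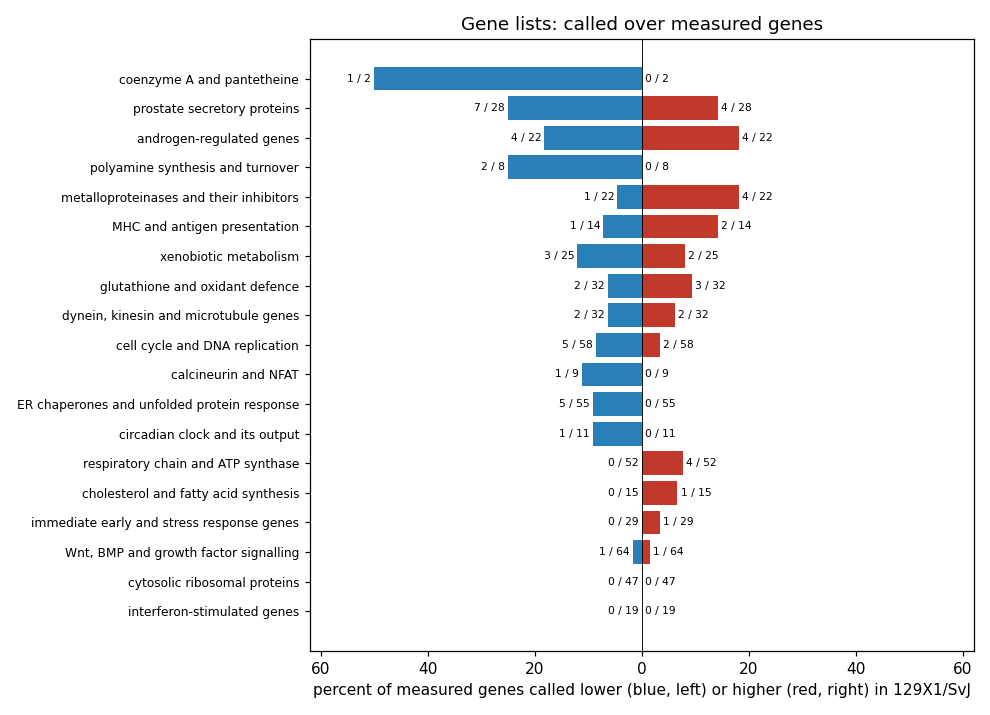
Horizontal bars give the percent of measured genes of each list that were called higher (red, right) or lower (blue, left) in 129X1/SvJ, with called over measured genes written beside each bar. Over all 5820 named genes 6.25% were called, 200 higher and 164 lower.

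Calls among markers of the cell types in and around the prostate are given here beside the 6.25% called over all named genes. At that share, a short list may hold 0 calls. Luminal epithelium had 1 higher (Epcam) and 2 lower (Sbp and Dpp4) of 16 measured, and the mean of its markers per pool lay between -0.20 and 0.00 in 129X1/SvJ and between -0.16 and 0.07 in the other strains. Basal epithelium had 1 lower of 5, Sox4 (-0.64 ± 0.13), with 2 further elements not called. Smooth muscle (13 measured), endothelium (10), leukocytes (19), erythroid cells (2) and epididymis (1) had 0 calls. Fibroblasts and matrix had 2 higher, Cxcl12 (0.60 ± 0.11) and Col18a1 (0.51 ± 0.15), and 1 lower, Fbln2 (-0.35), of 38. Fbln2 was not called without pool 3 or 4 (-0.32 and -0.31), nor Col18a1 without pool 1, 2 or 3 (0.45, 0.53 and 0.48). Of 13 neuronal and neuroendocrine markers 1 was lower, Slc6a2, the noradrenaline transporter (-0.76 ± 0.16), where C57BL/6J alone was high at 1.22 to 1.85.

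Markers of fat, striated muscle and urothelium also held called genes, where 6.25% of all named genes were called. Adipose tissue had 2 higher of 11, Car3 (1.03 ± 0.21) and Fabp4 (0.48 ± 0.13), and the mean of its markers ran from 0.06 to 0.33 over the 129X1/SvJ pools and from -0.33 to 0.13 over the others, with overlap. Fabp4 was not called without pool 3 or pool 4 (adjusted p 0.051 and 0.14). The Car3 difference was 1.64 over the pools in Cy3 and 0.43 over those in Cy5, where dye and pool cannot be told apart. Skeletal muscle had 2 higher of 16, Tnnc2 (0.57) and Eno3 (0.45), the latter not called without pool 3 or 4 (0.41 in both). Urothelium had 3 higher, Psca, Upk1b (0.61 ± 0.13) and Gata3 (0.49 ± 0.11), and 1 lower, Cldn8 (-0.81 ± 0.19), of 7 measured. Upk1b was not particular to 129X1/SvJ, as its mean of 0.39 lay below the C57BL/6J mean of 0.68. Without pool 4 the Cldn8 difference was -0.43, still called. A further Gata3 element gave 0.03 and was not called (adjusted p 0.96). The mean of the 7 ran from -0.60 to 0.33 in 129X1/SvJ, from 0.02 to 0.24 in C57BL/6J, from -0.08 to 0.09 in DBA/2 and at -0.31 or below in FVB/NJ and BALB/c. With a weight for each strain 0 adipose, 0 skeletal muscle and 1 urothelial call remained, and the part of these tissues in the differences was not tested.

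Of 19 measured genes that the text of the study names, 7 were called higher and 5 lower; the study chose them on these samples, so this count is no independent evidence. Cap1, an actin-binding protein, was the 1 among them not described so far: it was at 0.33, 0.42, 0.47 and 0.46, above the 16 others at -1.32 to 0.22, with a difference of 0.62 ± 0.07 and an adjusted p against every strain of 0.53 because FVB/NJ, BALB/c and DBA/2 were near. Clu (-0.51), Fabp5 (0.31), Apod (-0.30), Rbp4 (-0.35), B2m (0.06) and Esr1 (0.06) were not called. Ms4a5, named here after its values were seen, had a difference of 1.81 ± 0.21 with no overlap (0.54 to 1.30 against -2.31 to 0.27) and a further element at 1.57, but was not apart from every strain (adjusted p 0.40).

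Genes with more than 1 element allowed a check within the arrays. The 94 called genes with further elements had 132 of them, of which 110 (83.3%) had the same sign, 45 (34.1%) were called in the same direction and 1 was called in the opposite direction. Some further elements may be repeated spots of 1 clone, and all share the RNA of the pools. In gene order, 17 of 354 called genes (4.80%) had a next measured gene called in the same direction, where 3.40% of all genes had a next gene called higher and 2.85% a next gene called lower. The pairs with both differences over 1 in size were Cyp2b10 with Cyp2b9 and Mgst1 with Pik3c2g, and others were Mmp8 with Mmp7, Ftl1 (-0.53) with Tulp2, Pnrc2 with Fuca1 (-0.45) and Slc6a2 with Ces1e.

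The difference was also computed for each dye of the sample on its own. The 129X1/SvJ sample was in Cy5 for pools 1 and 4 and in Cy3 for pools 2 and 3, with the dyes the other way round in the other strains, so each strain had 2 arrays per dye. Each pool was labelled in 1 dye only, so within a strain a difference between dyes cannot be told apart from a difference between pools. A dye difference of its own in 129X1/SvJ was called for 388 of 11136 elements (3.48%), 266 higher in Cy5 and 122 lower, of which 9 were also called in the strain comparison and 0 were among the 34 apart from every strain. The largest were Ube2ql1, with a dye difference 5.70 larger than in the other strains, Ncoa1 (5.28) and Dact1 (-5.07), and none of these 3 was called in the strain comparison. Car3 was higher by 1.64 with the sample in Cy3 and by 0.43 in Cy5.

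**Figure D5:**
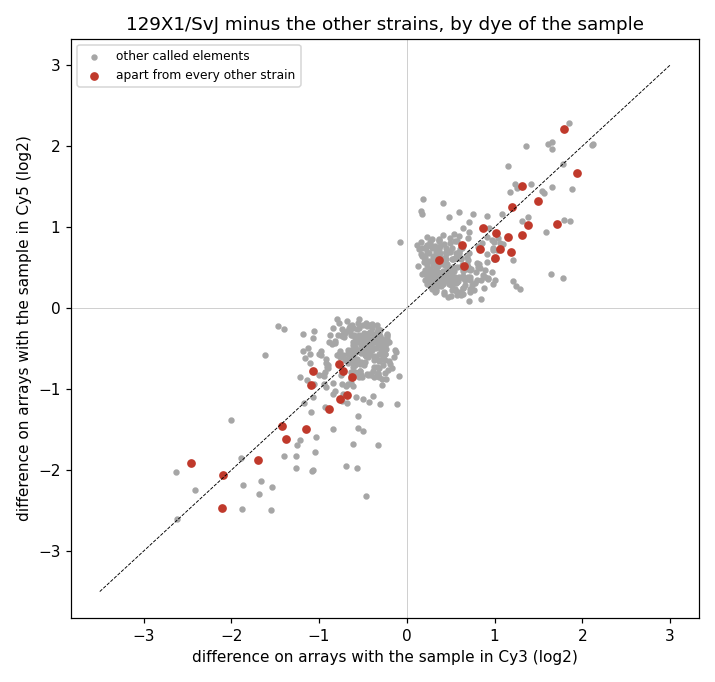
Each point is a called element; the horizontal axis is the difference of 129X1/SvJ from the mean of the other strains on arrays with the sample in Cy3 and the vertical axis the same with the sample in Cy5, both in log2 units, and the dashed line marks equal values. The 34 elements apart from every strain are red. Since elements were called on the mean of both dyes, like signs on both axes follow largely from the call. The distance from the dashed line shows the difference between the arrays of each dye, which are of different pools, as for Car3 at 1.64 and 0.43.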

How the data were processed

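RNA of prostate pools from 5 strains was amplified, labelled in Cy3 or Cy5 and hybridised with a common reference. The authors subtracted the median background from each spot and applied print-tip loess within each array; the deposited values are the log2 ratios of sample over reference. Spot intensities, and with them the methods' removal of elements of low abundance, were not used here.

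An element was tested if it lacked a value on no more than 3 of the 20 arrays and had 2 or more in every strain (11159 of 11552). Strain means were fitted on all arrays with limma 3.58.1 in R 4.3.3, and adjusted p-values are Benjamini-Hochberg values over all elements; SE is that of the moderated fit. Pools are of separate mice. For the test against every strain, the largest of 4 p-values was taken where all 4 differences had 1 sign, and otherwise 1. Symbols came from the array annotation (8050 elements with 1 symbol, 672 with several, which were not named, 2830 without an entry). By gene ID, 7880 elements were found in the RefSeq table for GRCm38.p6, with the same symbol for each. A gene was represented by its element with the fewest missing values.

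Named were up to 14 genes each way with the largest differences among those called, apart from every strain and free of overlap, up to 5 called members of each list, genes the study names and further elements of these; members and lists were chosen with earlier results of these data known. Functions were tested on simulated data with the same spread in every strain and no dye effect. The rate of false calls with the wider spread of 129X1/SvJ was therefore not tested. Alternatives changed the filter, scaling, dye, estimate of the spread, pool block, strains and arrays in the fit. Pool numbers were not taken to pair the samples. Deviations of arrays that share a number correlated over 0.1 for 22 of 24 pairs among the other 4 strains, where a shared number is also a shared dye. For pairs with 129X1/SvJ, where it is the opposite dye, 0 of 16 did. Number and dye go together in these pairs, so they cannot show whether numbers pair the samples.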

Additional observations from a re-analysis of the deposited data

Results flagged for a closer look

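Over 31 genes and the spread of the arrays, 165 groups of 4 pools were examined for a pool far from the other 3, and 9 had one; chance gives about 1 in 20 groups. Cmbl in pool 4 of 129X1/SvJ was at 1.76, with the other 3 pools at 1.13 to 1.23. Olfm1 in the same pool was at 1.62 against 0.84 to 0.96, Zcchc3 at -1.05 against -0.50 to -0.47, and Vnn1 at -2.44 against -3.29 to -3.27. Psca in that pool was at -0.20 against 1.09 to 1.34, although on its 3 further elements no pool of 129X1/SvJ overlapped the other strains. Those elements were not apart from every strain in the test. In the other strains, Miga1 in pool 4 of DBA/2 was at 0.0625 against 0.36 to 0.41, Pnrc2 in pool 4 of FVB/NJ at 0.42 against 0.22 to 0.24, and Psca in the same FVB/NJ pool at 0.34 against 0.07 to 0.08. The median absolute deviation of the array of FVB/NJ pool 2 was 0.291, with the other 3 FVB/NJ arrays at 0.189 to 0.197.

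The difference between dyes in 129X1/SvJ departed from that of the other strains, by a test of the departure itself in limma, for 388 elements. Of the genes named in the comparison, this held for Car3, where the departure was -1.21 (adjusted p 0.028) and the 129X1/SvJ pools stood at 1.15 and 1.21 in Cy3 and at 0.30 and 0.09 in Cy5. Each pool was in 1 dye only, so dye and pool cannot be told apart here.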

How the results depend on the processing

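Under 40 alternatives, 20 of which left out 1 pool, no named gene reversed its direction; 17 of the 24 genes apart from every strain, and 21 of the 82 called named genes, were called in the contrast under every alternative. The values of comparison are 330 elements higher, 306 lower, 19 above and 15 below every strain, 126 with pools apart and 388 with a dye difference. Scaling every array to the same median absolute deviation gave 127, 112, 2, 0, 56 and 80 of these in that order, and quantile normalization 110, 69, 1, 0, 50 and 55. A weight for each strain gave 63, 63, 3, 3 and 62 for the first 5, and array weights gave 93 higher, 87 lower, 6 above every strain and 71 with pools apart. Elements averaged by gene symbol gave 213, 203, 12, 9 and 76, from fewer features tested. Arrays with the sample in Cy5 alone gave 130 higher, 83 lower and 0 and 0 outside every strain, and those in Cy3 alone 5 above every strain and 543 with pools apart, from 10 arrays each. Treating the 16 other arrays as 1 group gave 161 higher and 153 lower. Leaving out C57BL/6J gave 211 higher and 201 lower, leaving out DBA/2 215 higher and 10 above every strain, and leaving out FVB/NJ 34 above and 32 below every strain. Where no reason is given, the cause was not tested.

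With the pool number as a block and the dye as a term there were 611 higher, 568 lower, 31 above and 26 below every strain. The pool number as a block alone gave 357 higher and 322 lower. Whether numbers pair the samples could not be told from the dye. Leaving out 1 pool at a time, counts ran from 257 to 427 higher, 251 to 465 lower, 10 to 28 above every strain, 12 to 20 below, 126 to 267 with pools apart and 299 to 2241 with a dye difference, where 2241 was reached without pool 1 and 522 without pool 4 of 129X1/SvJ. Of 1320 counts of called members of gene lists under alternatives, 261 moved by over 1.5 times. The 4 arrays of 129X1/SvJ vary more than the rest, so a fit that pools the spread over strains gives them smaller errors than their own spread would, and the counts under strain weights were the lowest of the fits with all 20 arrays on the deposited scale.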
